A study of Mus musculus with 12 samples.

Results

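The forkhead box (Fox) genes encode transcription factors that share a winged-helix DNA-binding domain. Every gene entry whose symbol begins with Fox, a subfamily letter from a to s and a digit was taken as a member, which gave 45 of the 23366 gene entries in mouse small-intestinal RNA-seq counts. One of them, Foxl2os, is an antisense RNA entry and not a forkhead protein gene. Of the 45 members, 23 passed the edgeR expression filter, 13 had counts but stayed below it, and 9 had 0 counts in all 12 libraries.

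The libraries formed 4 groups of 3 biological replicates from mice of a mixed C57BL/6 CD1 strain, with no drug or other agent named in the labels. E12.5 and E14.5 were embryonic small-intestinal epithelium, named by embryonic day and sorted as EpCAM+CD31-CD45-DAPI-, that is, live cells with the epithelial surface protein EpCAM and without the endothelial and white-cell proteins CD31 and CD45. ISC were adult crypt cells with high Lgr5-EGFP fluorescence, where EGFP marks cells that express the stem-cell receptor gene Lgr5. AE were adult villus cells, called enterocytes in the labels and sorted by the same 3 surface proteins, so that goblet and endocrine cells of the villus were not gated out. Both adult groups came from Lgr5EGFP-Cre-ERT males at postnatal day 60, so AE animals carried the reporter allele too, and the labels do not give the embryos' genotype. Each E12.5 library pooled 20 embryos, each adult library came from 1 gut, and 50000 cells and 50 ng of RNA went into a library. In all 6 embryonic libraries the age label names the other stage than the title. Titles were followed, and the direction of each change between the embryonic stages rests on them.

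As background, Foxa factors can bind closed chromatin and act early in the formation of gut endoderm, and in the adult intestine Foxa1 and Foxa2 support goblet and endocrine cells. Foxf1, Foxf2 and Foxl1 act in the mesenchyme that surrounds the gut tube, where hedgehog signals from the epithelium maintain them. Foxm1 drives genes of mitosis, Foxo factors are switched off by insulin signalling through AKT, Foxp factors are mainly repressors, and Foxj1 is the master factor of motile cilia.

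Gene counts per library, in units of 1000000, ran from 12.6 to 45.2. Levels below are counts per 1000000 scaled by the trimmed mean of M values (CPM), as mean ± SD of 3 libraries. Levels of different genes are compared only after division by exon length (CPM per kb). A change was called where edgeR's quasi-likelihood test gave an adjusted p under 0.05 over all 15342 genes kept. Sorted identity was visible in marker sums: 4 stem-cell markers summed to 6399–6963 CPM in ISC and to at most 713 elsewhere, and 4 enterocyte markers to 15072–28908 CPM in AE and to at most 581 elsewhere. Multiply aligned reads were listed in E12.5 and ISC, at 3.06% to 5.96% of reads, and at 0 in E14.5 and AE. No-feature reads, which hit no gene, were split the same way, at 46.0% to 58.1% in E12.5 and ISC and 33.4% to 40.5% in E14.5 and AE. Each step of the course, from E12.5 to E14.5, to ISC and to AE, crosses this split, and so does AE against E12.5. Read listing and group cannot be told apart in these comparisons. Comparisons of ISC with E12.5 and of AE with E14.5 do not cross the split. In these bulk samples, fewer cells of a type and less RNA per cell cannot be told apart.

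From E12.5 to AE, 56.5% of the tested members fell and 30.4% rose, beside 43.7% and 38.4% of all genes. At the steps from E14.5 to ISC and from ISC to AE the share that changed was near that of all genes. From E12.5 to E14.5, 16 of the 23 tested members passed, beside 49.2% of all genes tested: 5 rose and 11 fell, beside 23.6% and 25.6%. When any 1 of the 6 embryonic libraries was left out, the 16 became 10 to 12, beside 39.5% to 42.6% of all genes, and the 11 became 5 to 7. The lowest count, 10, came without E14.5 replicate 3, beside 40.2% of all genes. From E14.5 to ISC, 14 passed, beside 60.7% of all genes, and 7 rose and 7 fell, beside 30.2% and 30.6%. From ISC to AE, 15 passed, beside 67.8%, and 5 rose and 10 fell, beside 32.6% and 35.2%, or 2 and 11 with upper-quartile scaling, beside 27.7% and 41.4% of all genes.

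Comparing the ends of the course, AE with E12.5, 20 members passed, beside 82.1% of all genes. Of these, 7 rose and 13 fell, beside 38.4% and 43.7%, or 5 and 15 with upper-quartile scaling, beside 33.5% and 49.3%. The median log2 change of the 23 members was -1.47, beside -0.15 over all genes tested. Between ISC and E12.5, 12 passed, beside 68.5%, and 4 rose and 8 fell, beside 33.9% and 34.6%. Between AE and E14.5, 16 passed, beside 78.2%, and 6 rose and 10 fell, beside 36.7% and 41.5%, or 4 and 11 with upper-quartile scaling, beside 31.2% and 47.7%. When any difference among the 4 groups was tested, 21 of 23 members passed, beside 93.3% of all genes. Foxo3 and Foxq1 were the exceptions, with adjusted p of 0.199 and 0.0948 in the same edgeR fit.

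**Figure D1:**
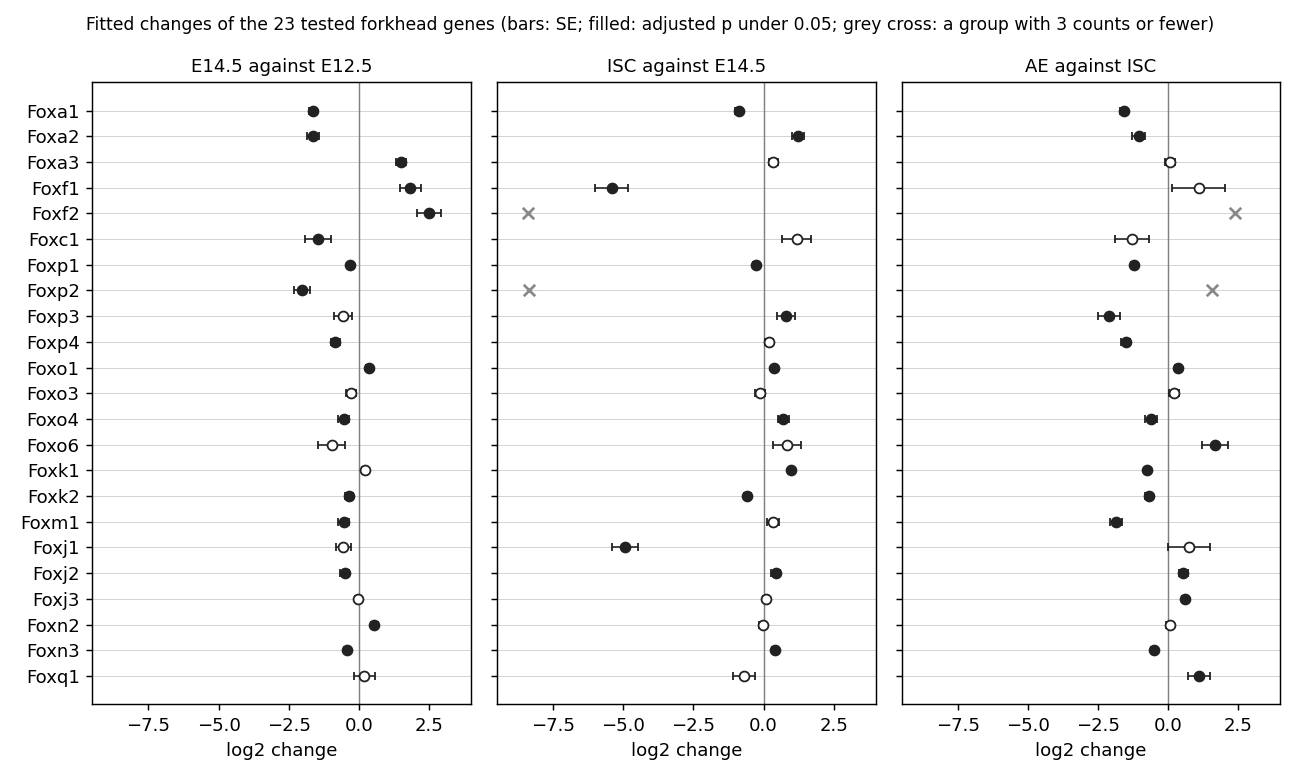
Fitted log2 change (x axis) of each of the 23 tested forkhead genes in E14.5 against E12.5, ISC against E14.5 and AE against ISC, from edgeR; bars are the SE and filled points have an adjusted p under 0.05. Grey crosses mark Foxf2 and Foxp2, which had 3 counts or fewer in a group, so that their position depends on the prior count; Foxf1, at -5.41, and Foxj1, at -4.94, lie farthest left among the others in ISC against E14.5.

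The endodermal Foxa genes did not move together. Foxa1 stood at 244, 197 and 179 CPM in the E12.5 libraries, at 64.7, 67.7 and 65.3 in E14.5, at 36.4, 34.3 and 35.9 in ISC and at 13.2, 10.8 and 11.1 in AE. No library of a group overlapped the next, and the level fell at each step along the course. The log2 changes were -1.65 ± 0.12 (SE) from E12.5 to E14.5, -0.89 ± 0.12 to ISC and -1.59 ± 0.13 to AE, with adjusted p of 1.51e-07, 1.97e-05 and 1.11e-07 by edgeR. From the first to the last group Foxa1 fell 17.5-fold.

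Foxa3 went the other way. Its levels were 6.96, 5.06 and 4.81 CPM in E12.5, 15.5, 14.6 and 17.7 in E14.5, 20.6, 17.8 and 22.3 in ISC, and 20.1, 24.9 and 18.3 in AE. All E12.5 libraries lay below all others, and ISC and AE overlapped. The rise to E14.5 was 2.83-fold (edgeR adjusted p = 1.05e-05). The later differences, 0.35 ± 0.17 and 0.06 ± 0.17 on the log2 scale, did not pass (adjusted p = 0.087 and 0.771 by edgeR). AE against E14.5 passed at a log2 change of 0.41 (edgeR adjusted p = 0.0385). This call was lost without AE replicate 2 (adjusted p = 0.181) and without E14.5 replicate 1 or 2. It was also lost with upper-quartile scaling (adjusted p = 0.389), when low genes were not filtered out (adjusted p = 0.0585) and with a replicate block (adjusted p = 0.0532).

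Foxa2, which with Foxa1 acts in endoderm specification, alternated. It stood at 9.56, 11.8 and 8.99 CPM in E12.5, at 3.11, 3.12 and 3.47 in E14.5, at 9.13, 7.74 and 6.00 in ISC and at 3.08, 3.19 and 5.03 in AE. E12.5 and ISC overlapped, E14.5 and AE overlapped, and the first pair lay above the second. The fall to E14.5 was 3.13-fold, the rise to ISC 2.35-fold and the fall to AE 2.08-fold, with edgeR adjusted p of 2.44e-05, 0.000188 and 0.00086. All 3 of these steps cross the split in read listing. Within it, the difference between ISC and E12.5 was -0.41 ± 0.20 on the log2 scale (edgeR adjusted p = 0.0889) and that between AE and E14.5 was 0.18 ± 0.23 (adjusted p = 0.491), neither past the threshold. For Foxa1 the same pair of comparisons gave -2.54 and -2.48, both called, and for Foxa3 1.84 and 0.41.

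**Figure D2:**
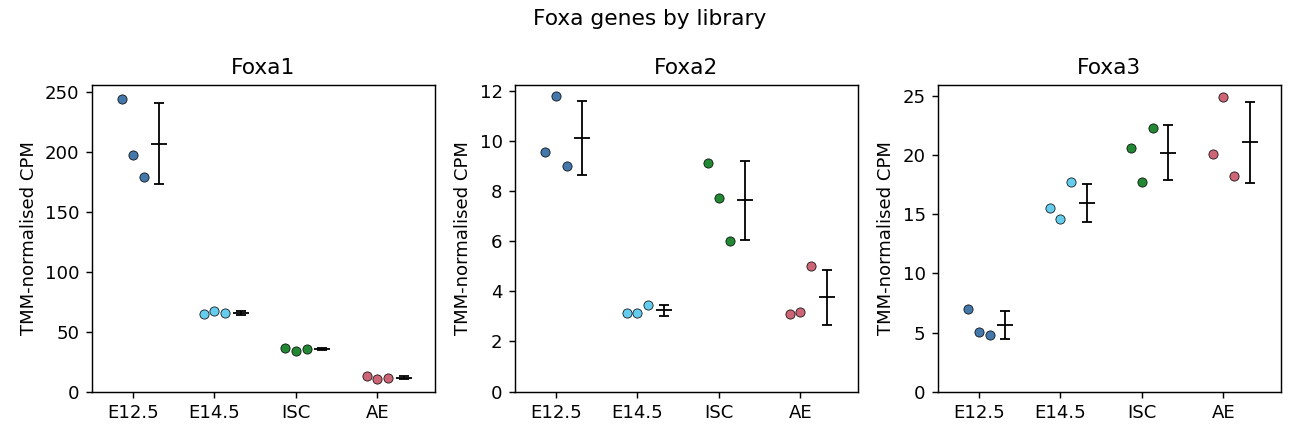
TMM-normalised CPM (y axis) of Foxa1, Foxa2 and Foxa3 in each of the 12 libraries; points are libraries and bars show mean ± SD of 3. Foxa1 steps down from 207 to 11.7 CPM on average, Foxa3 rises from 5.61 to 21.1, and Foxa2 is high in E12.5 and ISC and low in E14.5 and AE.

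The 3 Foxa genes code for nearly the same DNA-contacting domain, which raises the question whether reads could pass between them. The 90 coding bases at the start of the forkhead domain are shown for Foxa1, Foxa2, Foxa3, Foxf1 and Foxf2, from GENCODE vM21 transcripts, with capitals at bases that differ from Foxa1.
Foxa1: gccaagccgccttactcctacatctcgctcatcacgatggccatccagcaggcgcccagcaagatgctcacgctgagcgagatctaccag
Foxa2: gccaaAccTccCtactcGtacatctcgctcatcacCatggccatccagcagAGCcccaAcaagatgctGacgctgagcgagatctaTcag
Foxa3: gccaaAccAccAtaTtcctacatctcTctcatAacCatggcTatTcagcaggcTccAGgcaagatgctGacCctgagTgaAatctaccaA
Foxf1: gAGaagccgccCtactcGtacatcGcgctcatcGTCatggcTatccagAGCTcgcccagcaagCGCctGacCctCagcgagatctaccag
Foxf2: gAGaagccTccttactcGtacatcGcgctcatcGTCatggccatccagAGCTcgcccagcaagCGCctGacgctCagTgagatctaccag
In this stretch Foxa2 matched Foxa1 at 79 of 90 bases (87.8%), Foxa3 at 73 (81.1%), Foxf1 at 71 (78.9%) and Foxf2 at 72 (80%). Differences were spread along the stretch, and none of the 3 Foxa genes shared a 50-base run with any other gene's transcripts. For Foxf1 and Foxf2, 2.07% and 2.12% of such runs were shared, with microRNA entries that overlap them. Only exact runs of this chosen length were searched, without regard to read length or mismatches allowed in alignment. Whether reads passed between these genes was therefore not tested.

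The make-up of the Foxa subfamily differed from group to group. Per kb, Foxa1 made up 89.8% ± 0.974 (SD, n = 3) of summed Foxa expression in E12.5 and 68.3% ± 2.35 in E14.5, then 44.9% ± 1.21 in ISC and 22.9% ± 3.49 in AE. Foxa3 made up 3.96% ± 0.253, 27.0% ± 2.17, 41.6% ± 3.14 and 66.7% ± 5.43 in the same order. Foxa2 was the smallest of the 3 in E14.5, ISC and AE, between 4.71% and 13.5% on average, and held 6.25% in E12.5. Foxa1 was the leading Foxa gene in every E12.5 and E14.5 library and Foxa3 in every AE library, whereas in ISC the 2 were close, with Foxa3 ahead in replicate 3 at 45.1% against 44.4%. Summed Foxa expression averaged 69.2 ± 10.6 CPM per kb in E12.5 and 29.0 ± 0.713, 23.8 ± 1.36 and 15.5 ± 1.23 in E14.5, ISC and AE. These shares and sums are descriptions and were not tested.

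**Figure D3:**
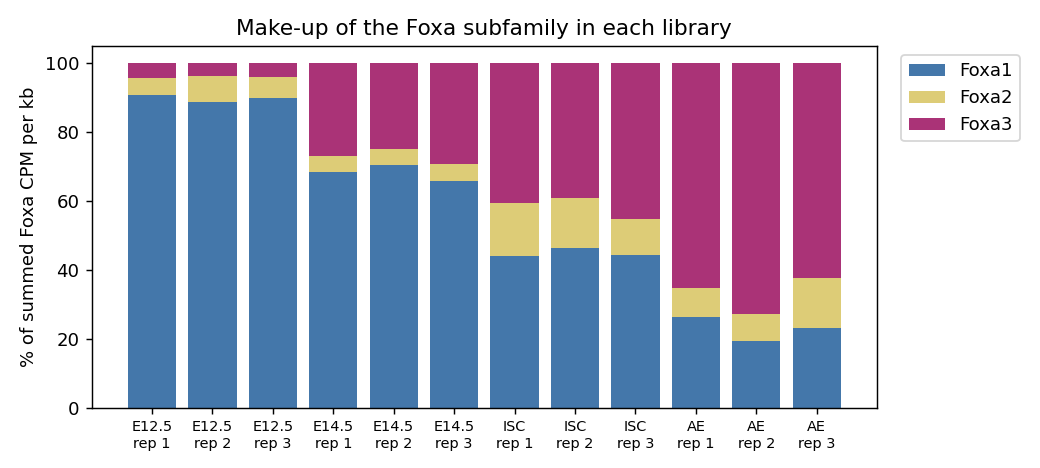
Percent of summed Foxa CPM per kb (y axis) held by Foxa1, Foxa2 and Foxa3 in each of the 12 libraries (x axis). Foxa1 holds 89.8% on average in E12.5 and 22.9% in AE, and Foxa3 holds 3.96% and 66.7%.

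Because Foxa1 and Foxa3 moved in opposite directions, the 250 bases before their RefSeq start sites, and before the most upstream start of Foxa2, are shown from the RefSeq table of build GRCm38.p6. Capitals mark matches to a motif searched on both strands. The Foxa1 window is chr12:57546112-57546361, that of Foxa2 is chr2:148046970-148047219 and that of Foxa3 is chr7:19023540-19023789, all on the minus strand. In the Foxa1 window 10 bases lie in an annotated exon, and in the other two windows none do.
Foxa1: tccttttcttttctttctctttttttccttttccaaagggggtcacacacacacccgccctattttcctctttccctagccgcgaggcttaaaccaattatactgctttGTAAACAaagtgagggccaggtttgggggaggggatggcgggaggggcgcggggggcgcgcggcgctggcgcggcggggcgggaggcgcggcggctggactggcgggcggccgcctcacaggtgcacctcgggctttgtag
Foxa2: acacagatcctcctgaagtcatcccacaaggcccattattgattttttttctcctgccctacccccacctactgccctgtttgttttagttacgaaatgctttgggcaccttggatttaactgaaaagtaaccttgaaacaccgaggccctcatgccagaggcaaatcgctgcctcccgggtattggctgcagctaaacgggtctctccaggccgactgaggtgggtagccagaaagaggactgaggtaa
Foxa3: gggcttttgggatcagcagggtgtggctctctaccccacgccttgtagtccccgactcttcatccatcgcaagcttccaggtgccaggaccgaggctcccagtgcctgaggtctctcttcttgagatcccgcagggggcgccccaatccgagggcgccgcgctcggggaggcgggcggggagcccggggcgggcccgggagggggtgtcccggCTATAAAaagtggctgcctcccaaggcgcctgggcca
In Foxa1 the capitals are the minus-strand match to the forkhead motif TGTTTAC, from -141 to -135 relative to the start, a motif found in 3.17% of 32851 windows of this length. In Foxa3 they are the TATA motif TATAAA, from -36 to -31 and found in 12.4% of windows, which overlaps a minus-strand match to the CDX motif TTTATNG, found in 9.81%. The most upstream Foxa2 window had no match, and of the other 2 Foxa2 start windows in the table, not shown, 1 held a minus-strand match to TATAAA from -208 to -203. The other motifs searched were TGTTTGC, a variant of the forkhead motif (4.3% of windows), AGATAAG for GATA factors (2.74%), CAAAGTCCA for HNF4 (0.384%) and GACCACCCA for GLI factors (0.225%), and none of them matched these 3 windows. A match is a description of the letters only.

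Genes of secretory cells with known links to Foxa1 and Foxa2 rose more often than they fell at each step. Foxa1 fell at each step, Foxa2 fell, rose and fell, and Foxa3 rose to E14.5. Whether the secretory genes follow any Foxa gene was not tested. Of 14 such secretory genes, 9 rose and 1 fell from E12.5 to E14.5, beside 23.6% and 25.6% of all genes. To ISC 7 rose and 5 fell, beside 30.2% and 30.6%, and to AE 13 rose and 1 fell, beside 32.6% and 35.2%. The median log2 changes were 1.84, 0.91 and 3.24, beside -0.02, -0.00 and -0.05 over all genes. Muc2, the main intestinal mucin, averaged 3.38 CPM in E14.5 and 649 in ISC (log2 change 7.58), and Clca3, a goblet-cell secreted protein, averaged 74.6 CPM in ISC and 2585 in AE (log2 change 5.11). Sst, the somatostatin gene of endocrine D cells, averaged 1.06 CPM in ISC and 111 in AE. Of 15 other endoderm transcription factor genes, 4 rose and 8 fell to E14.5, 5 rose and 4 fell to ISC, and 8 rose and 4 fell to AE. Among these, Hnf4g rose 9.17-fold and Sox9, a crypt factor, fell 8.49-fold from ISC to AE.

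The mesenchymal Foxf genes peaked in E14.5 and were near 0 in both adult groups. Foxf1 stood at 0.578, 0.933 and 1.17 CPM in E12.5, at 4.01, 3.36 and 2.11 in E14.5, at 0.127, 0.0545 and 0.0435 in ISC, and at 0.245, 0 and 0.114 in AE. Every E14.5 library was above every E12.5 library, and every embryonic library was above every adult one. The rise from E12.5 to E14.5 was 3.58-fold and the fall to ISC 42.4-fold, with edgeR adjusted p of 0.00119 and 2.3e-06. ISC held 4 Foxf1 counts in all and AE 8, and these 2 groups did not differ past the threshold (log2 change 1.08 ± 0.95, adjusted p = 0.327). AE against E14.5 gave a log2 change of -4.32, or -5.92 without AE replicate 1, and AE against E12.5 gave -2.48, or -4.07 without it.

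Foxf2 followed the same order at a lower level. It stood at 0.257, 0.444 and 0.183 CPM in E12.5 and at 1.82, 1.72 and 1.41 in E14.5, a 5.68-fold rise (edgeR adjusted p = 0.000514). No count fell on it in ISC, and 1 count fell on it in AE, in replicate 3. Against a floor of 3 counts over the ISC group, Foxf2 was at least 32.2-fold higher in E14.5 and at least 5.41-fold higher in E12.5. Against the single AE count the ratio was 83.8 for E14.5, with a 95% exact counting interval of 14.9 to 3325, and 14.1 for E12.5, with an interval of 2.29 to 580. The fitted call of AE against E12.5 for Foxf2 was lost without AE replicate 1 (edgeR adjusted p = 0.0575).

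Foxl1, which marks the subepithelial cells beside the crypts and villi, stayed below the expression filter, with 30 counts in all. All 30 came from E14.5, at 0.399, 0.215 and 0.132 CPM. With 0 counts in the other 3 groups, it was at least 7.09-fold higher in E14.5 than in E12.5, at least 5.01-fold higher than in ISC and at least 4.34-fold higher than in AE. The floors, intervals and ratios cover counting error only.

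Markers of mesenchyme moved with the Foxf genes. Of 25 mesenchyme and smooth-muscle markers, 22 were tested. From E12.5 to E14.5, 21 rose and 1 fell, beside 23.6% and 25.6% of all genes. From E14.5 to ISC, 0 rose and 21 fell, beside 30.2% and 30.6%. Their summed level was 67.5–71.2 CPM in E12.5 and 303–392 in E14.5, against 9.70–10.6 in ISC and 34–48.4 in AE, with 9 of the 25 at 0 counts in ISC and 2 in AE. Epithelial markers, 9 in number, summed to 1835–2201, 3314–3457, 5321–5809 and 12291–14209 CPM in the same groups. Smooth-muscle genes led the rise, with Actg2 going from 1.44 to 31.6 CPM and Myh11 from 3.33 to 61.5. E14.5 replicate 3 had the lowest marker sum of its group and the lowest Foxf1, Foxf2 and Foxl1 levels. In AE, Prrx1 alone averaged 26.1 CPM of the sum, against 0.471 in ISC. Whether mesenchymal cells among the sorted cells set the Foxf levels was not tested. Pancreas markers, 6 in number, were also highest in E14.5. They summed to 9.81–28.4 CPM in E12.5 and 43.9–157 in E14.5, with the most in replicate 3, against 2.52–3.17 in ISC and 5.14–7.35 in AE. Whether pancreatic cells contributed to the embryonic Foxa levels was not tested.

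**Figure D4:**
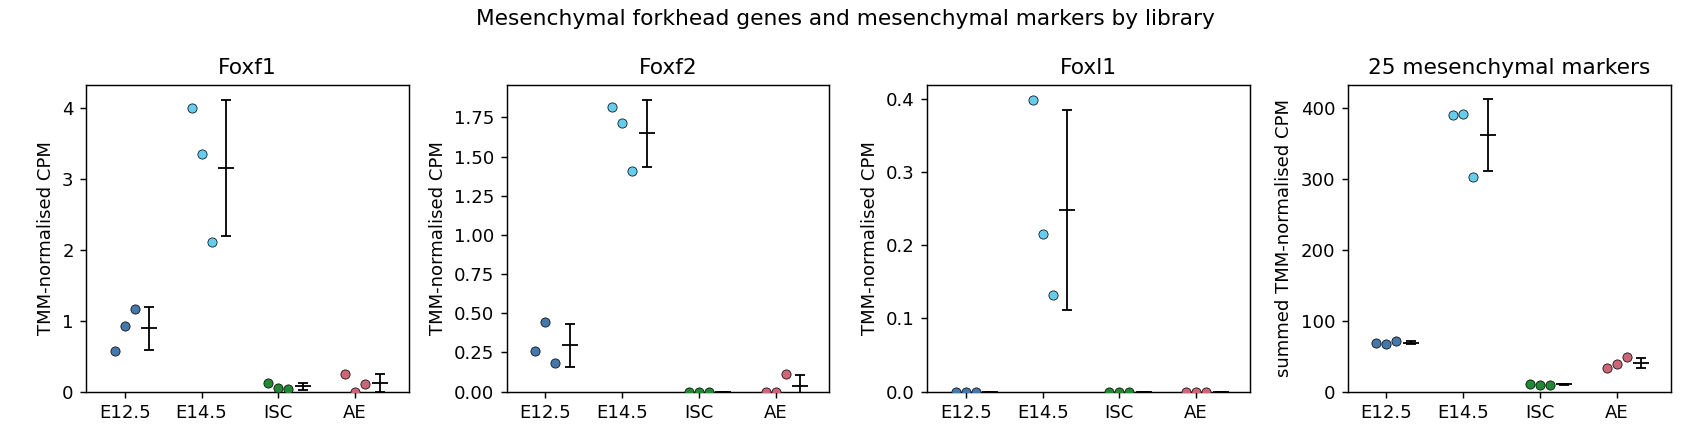
TMM-normalised CPM (y axis) of Foxf1, Foxf2 and Foxl1, and the summed CPM of 25 mesenchymal markers, in each of the 12 libraries; points are libraries and bars show mean ± SD of 3. All 4 panels peak in E14.5, where the marker sum lies between 303 and 392 CPM.

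Set against the Foxa genes, the Foxf genes were a small part everywhere. Foxf1 and Foxf2 together summed to 0.495 ± 0.128 CPM per kb in E12.5 and 2.01 ± 0.491 in E14.5, against 0.0310 ± 0.0187 in ISC and 0.0657 ± 0.0570 in AE. Foxa genes held 93.5% of the Foxa and Foxf sum in E14.5, with single libraries between 92.1% and 95.3%. In E12.5 they held 99.3%, and in ISC and AE 99.9% and 99.6%.

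Most genes of a list of hedgehog pathway and Bmp genes, which links epithelium to mesenchyme, fell between E14.5 and ISC, the step at which Foxf1 and Foxf2 fell. Of 13 tested, 1 rose and 11 fell at that step, beside 30.2% and 30.6% of all genes, and the 11 include Bmp2, Bmp4 and Bmp5. From E12.5 to E14.5, the step at which Foxf1 and Foxf2 rose, 4 of the 13 rose and 7 fell, beside 23.6% and 25.6%. To AE 3 rose and 3 fell, beside 32.6% and 35.2%. Whether this list and the Foxf genes are linked was not tested. Shh, the ligand made by gut epithelium, averaged 564 CPM in E12.5 and 192 in E14.5, but 0.578 in ISC and 0.442 in AE. Gli3, a transcription factor of the pathway, averaged 69.3 and 25.3 CPM in the embryonic groups, and it had 0 counts in all ISC libraries. The ligand gene Ihh averaged 38.1 CPM in E12.5 and 5.60 in ISC, and it rose 5.03-fold from ISC to AE, to 28.1 CPM.

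Per kb, Foxp1 and Foxp4 were among the leading 8 forkhead genes in E12.5, E14.5 and ISC. Both were lowest in AE, where Foxp1, at 6.50 CPM per kb, was no longer among the leading 8. Foxp4 stood at 362, 315 and 320 CPM in E12.5, at 187, 184 and 186 in E14.5, at 186, 197 and 253 in ISC and at 74.2, 57.5 and 91.1 in AE. It fell 1.79-fold to E14.5 and 2.86-fold from ISC to AE, with edgeR adjusted p of 0.000447 and 1.07e-06, while E14.5 and ISC overlapped and did not differ past the threshold (adjusted p = 0.284). Foxp1 stood at 316, 307 and 305 CPM in E12.5, at 248, 256 and 251 in E14.5, at 181, 219 and 222 in ISC and at 95.7, 78.8 and 93.8 in AE. No group overlapped the next, and the largest step was the 2.32-fold fall from ISC to AE (edgeR adjusted p = 2.67e-07). The smaller falls of Foxp1 to E14.5 and to ISC, -0.30 and -0.28 on the log2 scale, were called over 12 libraries. The former was lost when any 1 embryonic library was left out or low genes were not filtered out. The latter was lost when any 1 E14.5 library or ISC replicate 1 was left out, and with a replicate block (edgeR adjusted p = 0.0517).

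Foxp2, a factor known from neurons and from lung epithelium, was found almost only in the embryonic libraries. It stood at 22.1, 47.7 and 20.3 CPM in E12.5 and at 7.43, 8.63 and 5.71 in E14.5, and E12.5 replicate 2 stood apart from its group. The fall from E12.5 to E14.5 was -2.04 ± 0.29 on the log2 scale (edgeR adjusted p = 6.66e-05) and -1.53 without that library. In the adult it was all but undetected, with 1 count in ISC and 3 in AE, against 2317 in E12.5 and 870 in E14.5. The ratio of E14.5 to ISC was 436, with a 95% exact counting interval of 78 to 17222, and that of E14.5 to AE was 126, with an interval of 42.9 to 612. Enteric neural markers, 11 in number, also fell to ISC. Of 10 tested, 0 rose and 9 fell, beside 30.2% and 30.6% of all genes. Between the embryonic groups 4 rose and 1 fell, beside 23.6% and 25.6%. Their summed levels were 14–17.7 CPM in E12.5 and 28.3–33.5 in E14.5.

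Foxp3, the factor of regulatory T cells, was low throughout, at 0.228 to 2.34 CPM. It was lower in AE than in ISC by 2.11 ± 0.41 on the log2 scale (edgeR adjusted p = 0.000354). Immune markers went the other way between these groups, with 4 of 10 tested rising and 0 falling, beside 32.6% and 35.2% of all genes. They summed to 33.6–35.6 CPM in ISC and 40.7–69.0 in AE. Exons of Ccdc22, on the opposite strand, cover 12.9% of the Foxp3 exon bases, and Ccdc22 itself averaged more in ISC than in AE, at 9.65–12.3 against 3.65–5.15 CPM. Those of Ppp1r3f and Gm36995, also on the opposite strand, cover 5.81% and 8.15%. Ppp1r3f overlapped between ISC and AE, at 0.444–1.58 against 0.685–0.980 CPM. Whether reads of these genes entered the Foxp3 counts was not tested. Exons of Flicr, on the same strand as Foxp3, cover 18.6%, which no strand setting would separate. Foxp3 counts are therefore uncertain.

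Foxm1, the mitotic factor, was lowest in the villus. It stood at 176, 171 and 157 CPM in E12.5, at 114, 115 and 118 in E14.5, at 119, 142 and 175 in ISC and at 56.4, 27.0 and 36.3 in AE. All AE libraries lay below all others, and AE replicate 1 was the highest of its group. The fall from ISC to AE was 3.62-fold (log2 change -1.85 ± 0.21, edgeR adjusted p = 2.78e-06). The fall from E12.5 to E14.5, -0.54 on the log2 scale, passed at an adjusted p of 0.0381 and was lost when any 1 embryonic library or ISC replicate 2 was left out. From E14.5 to ISC the difference was 0.34 ± 0.20 (adjusted p = 0.163). All 20 measured genes of a Foxm1 mitotic list fell from ISC to AE, where 35.2% of all genes fell. Their median log2 change was -1.38, beside -0.05 over all genes. They summed to 4717–6140 CPM in ISC and 1055–2032 in AE, where replicate 1 was again the highest. Mki67, a marker of cycling cells, averaged 2118 CPM in ISC, above the 1015 of E14.5 and the 471 of AE. Of the same 20, 3 rose and 2 fell to E14.5, beside 23.6% and 25.6% of all genes. To ISC 4 rose and 4 fell, beside 30.2% and 30.6%.

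The paralogues Foxk1 and Foxk2, which restrain autophagy genes, took different courses. Foxk1 stood at 98.3, 93.4 and 92.9 CPM in E12.5, at 111, 110 and 107 in E14.5, at 215, 193 and 239 in ISC and at 129, 128 and 130 in AE. Every ISC library was above every other, with a 1.98-fold rise from E14.5 and a 1.68-fold fall to AE (edgeR adjusted p = 5.91e-07 and 7.2e-06). Foxk2 stood at 132, 131 and 130 CPM in E12.5, at 102, 102 and 104 in E14.5, at 67.4, 68.9 and 70.5 in ISC and at 52.8, 41.3 and 32.3 in AE. It fell at each step without overlap, by 0.35, 0.57 and 0.70 on the log2 scale (edgeR adjusted p = 0.04, 0.00194 and 0.000391), and the first of these calls was lost without any 1 of the 6 embryonic or 3 ISC libraries, without AE replicate 2 and when low genes were not filtered out. Per kb, Foxk2 was above Foxk1 in E12.5 (24.9 against 12.51) and below it in ISC (13.1 against 28.5).

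**Figure D5:**
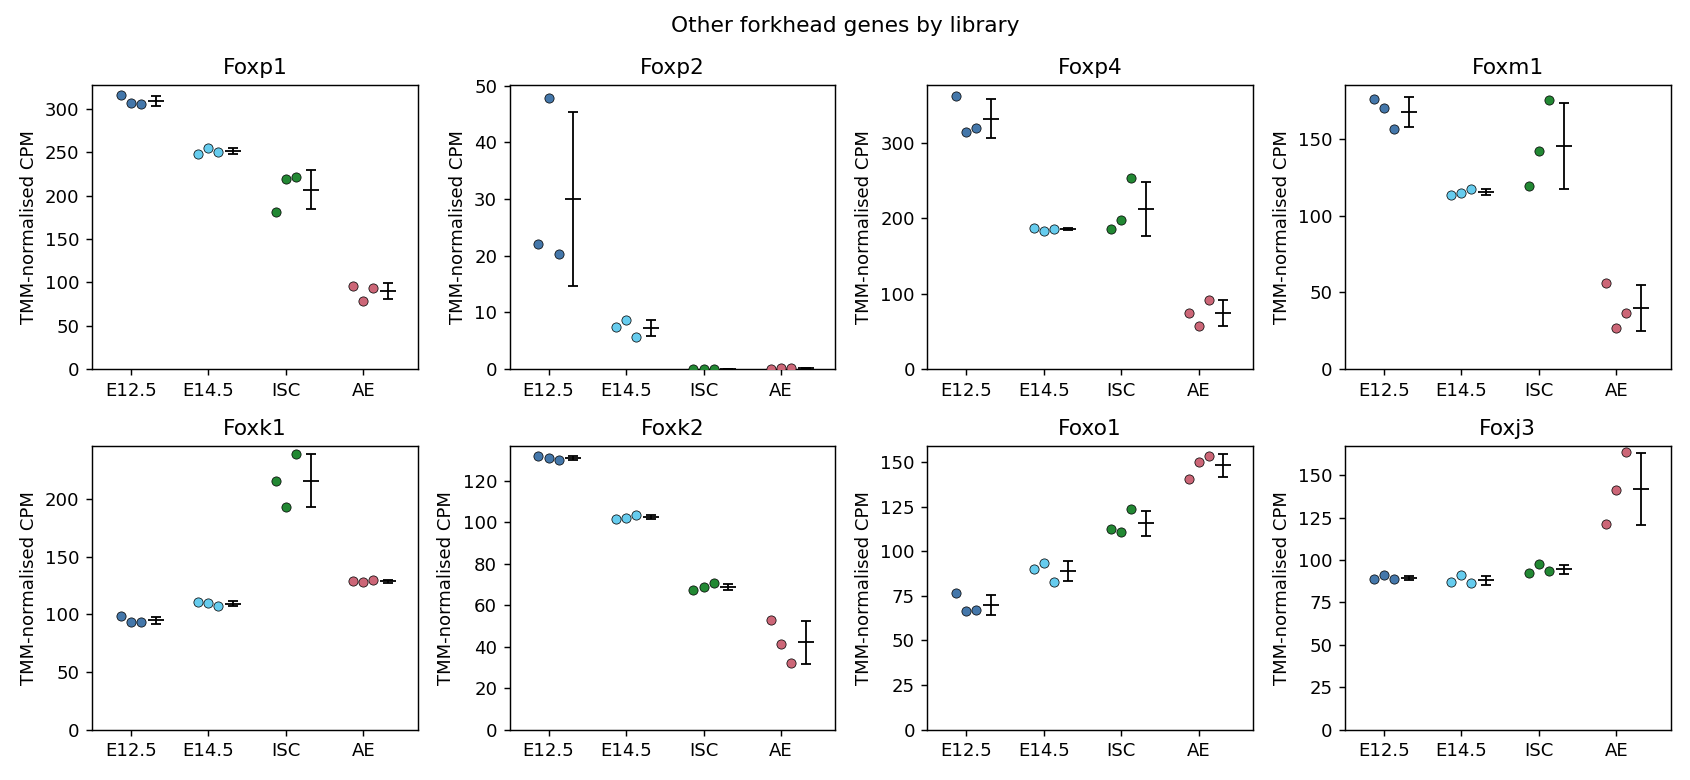
TMM-normalised CPM (y axis) of Foxp1, Foxp2, Foxp4, Foxm1, Foxk1, Foxk2, Foxo1 and Foxj3 in each of the 12 libraries; points are libraries and bars show mean ± SD of 3. Foxk1 is highest in ISC at 193 to 239 CPM, Foxo1 and Foxj3 are highest in AE, and the other 5 are highest in E12.5.

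Among the Foxo genes, Foxo1 rose along the whole course and Foxo3 passed no test between groups over the 12 libraries with TMM scaling. Foxo1 stood at 76.5, 66.3 and 67.0 CPM in E12.5, at 90.3, 93.7 and 82.7 in E14.5, at 112, 111 and 124 in ISC and at 141, 150 and 153 in AE. No group overlapped the next, and the steps were 0.35, 0.38 and 0.35 on the log2 scale, each ± 0.10 (edgeR adjusted p = 0.00913, 0.0037 and 0.00499). The last step fell to 0.15 (adjusted p = 0.152) with upper-quartile scaling, which shifted the median of all genes by -0.20 in that comparison. Foxo3 stood at 101, 82.6 and 70.8 CPM in E12.5, at 70.6, 72.9 and 65.6 in E14.5, at 65.4, 58.6 and 67.8 in ISC and at 50.9, 90.5 and 82.5 in AE, where replicate 1 was the lowest of all 12. The lowest adjusted p was 0.0601 by edgeR, for ISC against E12.5 (log2 change -0.41), and this difference passed in 7 of 18 alternatives, DESeq2 among them (-0.50, adjusted p = 0.0244). Without AE replicate 1, AE against ISC went from 0.22 to 0.44 (adjusted p = 0.0093) and AE against E14.5 from 0.09 to 0.31 (adjusted p = 0.0442). AE against E12.5 went from -0.19 to -0.46 with upper-quartile scaling (adjusted p = 0.0259). Per kb, Foxo3 held 49.6% of summed Foxo expression in E12.5 and Foxo1 36.0%, whereas in AE Foxo1 held 57.2% and Foxo3 32.2%.

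Foxo4 alternated as Foxa2 did, by smaller amounts. It stood at 10.1, 7.77 and 11.9 CPM in E12.5, at 7.38, 6.21 and 6.99 in E14.5, at 9.95, 8.93 and 14.48 in ISC and at 6.66, 7.43 and 7.99 in AE. E12.5 and ISC overlapped, as did E14.5 and AE. The 3 steps passed at log2 changes of -0.54, 0.70 and -0.61 (edgeR adjusted p = 0.0383, 0.00789 and 0.0188). Without ISC replicate 3, its highest library, the rise to ISC and the fall to AE were lost (adjusted p = 0.0699 and 0.151). The fall to AE was also lost without AE replicate 1 (adjusted p = 0.0622) and with only the 6 libraries compared (adjusted p = 0.0566), and the fall to E14.5 was lost without any 1 embryonic library except E12.5 replicate 2. Foxo6, named after its values were seen, stood at 1.09, 3.43 and 4.0 CPM in AE and at 0.399 to 1.25 in the other groups, and AE was above ISC by 1.67 ± 0.48 on the log2 scale (adjusted p = 0.0065).

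Of 22 genes with known links to Foxo factors, 14 rose and 4 fell from E14.5 to ISC, beside 30.2% and 30.6% of all genes. To E14.5, 4 rose and 2 fell, beside 23.6% and 25.6%, and to AE 10 rose and 5 fell, beside 32.6% and 35.2%. Txnip, an inhibitor of thioredoxin, rose 3.39-fold to E14.5 and 9.07-fold to ISC, to 289 CPM. From ISC to AE the largest rises were in G6pc and Pck1, enzymes of glucose production, from 2.62 to 136 and from 12.48 to 280 CPM.

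Foxj1, the cilia factor, was found mainly in the embryonic groups. It stood at 6.16, 4.66 and 4.04 CPM in E12.5, at 3.06, 3.28 and 3.78 in E14.5, at 0, 0.163 and 0.130 in ISC and at 0.245, 0.0817 and 0.114 in AE. Every embryonic library was above every adult one, and the fall from E14.5 to ISC was 30.8-fold (edgeR adjusted p = 3.86e-07). The log2 change of AE was -4.21 against E14.5 and -4.77 against E12.5, or -5.07 and -5.63 without AE replicate 1. Other genes of multiciliated cells, 8 measured, moved less, with sums of 12–15.0 CPM in E12.5 and 4.80–7.30 in E14.5, then 3.11–5.65 in ISC and 5.48–6.83 in AE. Of 7 tested, 0 rose and 4 fell to E14.5, beside 23.6% and 25.6% of all genes. To ISC 1 rose and 3 fell, beside 30.2% and 30.6%.

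Foxj2 and Foxj3, which are not confined to ciliated cells, were highest in AE. Foxj3 stood at 88.9, 90.9 and 88.8 CPM in E12.5, at 86.8, 91.0 and 86.1 in E14.5, at 92.2, 97.5 and 93.6 in ISC and at 121, 141 and 163 in AE, a 1.5-fold rise from ISC (edgeR adjusted p = 0.000213). The earlier groups did not differ past the threshold. Foxj2 stood at 35.1, 34.2 and 34.4 CPM in E12.5, at 24.4, 24.3 and 24.6 in E14.5, at 31.9, 32.5 and 34.4 in ISC and at 32.4, 53.7 and 58.5 in AE, where replicate 1 lay among the ISC libraries. Its 3 steps passed (log2 changes -0.50, 0.43 and 0.54), but the first was lost without any 1 embryonic library, the second in 11 of 18 alternatives including DESeq2 (adjusted p = 0.0797), and the third with upper-quartile scaling (adjusted p = 0.0796).

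Foxn2 and Foxn3 changed by small amounts. Foxn2 stood at 43.4, 43.0 and 42.9 CPM in E12.5, at 60.1, 62.7 and 66.2 in E14.5, at 61.5, 61.8 and 61.0 in ISC and at 77.6, 54.0 and 58.9 in AE. E12.5 lay below the other 3 groups, which overlapped, and the rise to E14.5 was 1.46-fold (edgeR adjusted p = 0.00197). Foxn3, a checkpoint repressor, stood at 78.2, 74.6 and 72.1 CPM in E12.5, at 53.1, 57.7 and 56.2 in E14.5, at 64.8, 73.9 and 80.5 in ISC and at 47.7, 51.2 and 56.2 in AE. Its steps were -0.43, 0.39 and -0.50 on the log2 scale, each ± 0.10 or 0.11 (edgeR adjusted p = 0.00384, 0.00496 and 0.000756), so it too was higher in E12.5 and ISC than in E14.5 and AE. Foxn3 in ISC against E12.5 differed by -0.04 (adjusted p = 0.77) and in AE against E14.5 by -0.11 (adjusted p = 0.352).

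Foxq1, known from stomach and hair, stood at 9.02, 5.60 and 7.01 CPM in E12.5, at 8.72, 9.0 and 6.99 in E14.5, at 6.53, 4.58 and 4.35 in ISC and at 4.03, 17.5 and 12.6 in AE. AE replicate 1 lay below every ISC library and the other two AE libraries above them. The call of AE against ISC (log2 change 1.11, edgeR adjusted p = 0.0241) was lost without AE replicate 2 (0.62, adjusted p = 0.179), and also without AE replicate 3, ISC replicate 2 or ISC replicate 3 and with upper-quartile scaling (adjusted p from 0.0541 to 0.0734). Exons of A530084C06Rik on the opposite strand cover 66.1% of the Foxq1 exon bases, so its counts are uncertain without the strand setting.

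Foxc1, a mesenchymal and vascular forkhead gene named after its values were seen, did not follow Foxf1. It stood at 0.898, 0.577 and 0.477 CPM in E12.5, at 0.274, 0.293 and 0.0879 in E14.5, at 0.697, 0.708 and 0.261 in ISC and at 0.245, 0.245 and 0.114 in AE. The fall from E12.5 to E14.5, -1.46 ± 0.47 on the log2 scale, had an adjusted p of 0.0196 by edgeR and was lost without E12.5 replicate 1 (0.108) or E14.5 replicate 3 (0.0706).

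The 13 members with counts below the filter reached at most 0.490 CPM in any library. That maximum belonged to Foxn1, the thymic epithelial factor, which had 18 counts in 5 libraries. Foxd3, a neural crest factor, had 8 counts in all, and Foxc2, of mesenchyme, had 2. Foxd2 had the most, with 46 counts over 10 libraries. The 9 members at 0 counts in all 12 libraries included Foxe1, Foxe3 and Foxi1, and the antisense entry Foxl2os. At these depths the floor of 3 counts over a group was at most 0.0606 CPM. That floor is a chosen bound and not a detection limit, and levels below it could leave 0 counts.

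Per kb, the leading forkhead gene was Foxp4 in E12.5, E14.5 and ISC, at 67.4, 37.7 and 43.1 CPM per kb, and Foxo1 in AE, at 17.1. Foxa1 had rank 2 in E12.5 at 62.2 CPM per kb, rank 3 in E14.5 at 19.8 and rank 7 in ISC at 10.7, and it was not among the leading 8 in AE. Foxk1 had rank 2 in ISC and AE, at 28.5 and 17.0 CPM per kb. The 45 members summed to 282 ± 21.1 CPM per kb in E12.5 and 192 ± 1.01 in E14.5, then 205 ± 18.3 in ISC and 137 ± 5.73 in AE. The leading gene held 12.49% of the family sum in AE (Foxo1) and 23.9% in E12.5 (Foxp4).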

How the data were processed

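Per the labels' protocols, RNA was amplified with an Ovation kit before NEBNext library preparation. The authors deposited raw read counts per gene symbol, not normalised, 1 file per library. The submitters' processing notes list HTSeq 0.6.1p1, STAR 2.3.1z13, DESeq2 1.6.3, SAMtools 1.2, bcl2fastq 1.8.4 and the mm9 build, with no role for each. Annotation and strand setting: not given in the sources used here. Closing entries that name no gene were left out: no-feature reads were 33.4% to 58.1% and ambiguous reads 0.531% to 1.00% of reads listed. Both differed without overlap between E12.5 and ISC on one side and E14.5 and AE on the other. Ambiguous reads were 0.531% to 0.717% in E12.5 and ISC and 0.823% to 1.00% in E14.5 and AE.

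Counts were tested with edgeR 4.0.16 (R 4.3.3): filterByExpr, TMM factors (0.696 to 1.16), prior count 0.125, quasi-likelihood tests with 1 coefficient for each group over the 12 libraries, and Benjamini-Hochberg adjustment over all 15342 genes at 0.05. The common biological coefficient of variation was 0.154, and the SE of a log2 change was derived from its F value. The script was tested on simulated data. Every replicate pair differed by more than sampling noise, with a chi-square per degree of freedom from 3.38 to 137.5. The highest values, 137.5 and 124.8, were those of AE replicate 1 against AE replicates 2 and 3. Replicates 2 and 3 of AE gave 26.6 against each other. Exon lengths came from GENCODE vM21, a later build than mm9, so they serve only as lengths. A length covers the exons of all annotated transcripts of a gene, 13.8 kb for Foxp1 and 4.93 kb for Foxp4. Shares and ranks per kb rest on this choice. Promoters came from the RefSeq table of GRCm38.p6. Where a group held 0 counts, a bound against 3 counts over the group is given, and where it held 1 to 3, a ratio with an exact 95% interval. Such intervals hold counting error alone, because reads were amplified.

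By the rule for named genes, every Foxa, Foxf and Foxl1 member and every member with a mean of at least 5 CPM in a group is given in full. Lower members are given by range with up to 6 examples, and of each gene list up to 3 called genes of at least 20 CPM in a comparison. Named outside this rule were Foxc1, Foxo6, Foxd2, Foxe1, Foxe3 and Foxl2os, and the list genes Bmp4 and Bmp5. The low members Foxj1 and Foxc1 are also given by library. The members and lists were chosen with earlier results of these data known. Alternatives were other size factors, no filter, DESeq2 1.42.0, 6 libraries only, a replicate block and leaving out each library.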

Additional observations from a re-analysis of the deposited data

How the results depend on the processing

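Of the 138 member changes (23 genes in 6 comparisons), 93 were called, 73 of these under each alternative that gave a value, and 20 were lost in at least 1. Of the 45 not called, 19 passed in at least 1. The 16 members called in E14.5 against E12.5 ranged from 10 to 17 with a library left out, beside 39.5% to 55.2% of all genes. The 11 lower ranged from 5 to 12, beside 20.4% to 28.6%. With only the 6 libraries compared, 19 were called and 13 were lower, beside 67.7% and 32.8%. The 5 higher in AE against ISC became 2 with upper-quartile factors, which shifted the median of all genes by -0.20 in that comparison, -0.24 in AE against E14.5 and -0.26 in AE against E12.5. With those factors the sign of a log2 change turned in AE against E14.5 for Foxa2 (-0.07), Foxk1 (-0.01, called at 0.24 with TMM), Foxn2 (-0.23), Foxo3 (-0.16) and Foxo4 (-0.15), and in AE against ISC for Foxa3 (-0.14) and Foxn2 (-0.14). Foxj3 turned to 0.02 in E14.5 against E12.5 with 6 libraries and to -0.01 in ISC against E12.5 with relative log expression factors and with DESeq2, and Foxn2 to -0.01 in AE against E14.5 with no filter. The cause was not tested.

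With a library left out, these uncalled log2 changes crossed 0. In AE against ISC the ranges were -0.04 to 0.19 for Foxa3, -0.51 to 1.58 for Foxf1, 0 to 3.39 for Foxf2, -0.13 to 1.15 for Foxj1 and -0.12 to 0.19 for Foxn2. In AE against E14.5 they were -0.04 to 0.32 for Foxa2, -0.38 to 0.13 for Foxc1, -0.16 to 0.12 for Foxn2, -0.09 to 0.31 for Foxo3 and -0.11 to 0.87 for Foxq1. In ISC against E12.5 they were -0.52 to 0.08 for Foxc1, -0.13 to 0.05 for Foxn3, -0.09 to 0.32 for Foxo4, -0.42 to 0.14 for Foxo6 and -0.04 to 0.42 for Foxp3, and in AE against E12.5 -0.34 to 0.03 for Foxo3.

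Groups share replicate numbers in the titles. Correlations between the deviations of same-numbered libraries ran from -0.13 to 0.18 over all comparisons, and the numbers were not taken as a pairing. In AE against ISC they ran from 0.03 to 0.18, so these values cannot decide whether adult libraries were paired. With a replicate block the called members were 16 in E14.5 against E12.5 (47.3% of all genes called), 13 in ISC against E14.5 (59.3%), 16 in AE against ISC (66.7%), 12 in ISC against E12.5 (67.4%), 15 in AE against E14.5 (77.4%) and 21 in AE against E12.5 (81.5%). With the block 3 called changes no longer passed, Foxa3 in AE against E14.5 (adjusted p = 0.0532) and Foxp1 and Foxp3 in ISC against E14.5 (0.0517 and 0.0726). In the same fit 3 others passed, Foxc1 in ISC against E14.5 (0.0228) and in AE against ISC (0.0261) and Foxo4 in AE against E12.5 (0.0448). Depth limits the members under 1 CPM, where 1 library can carry a fold.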

Other observations

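Several forkhead genes lie side by side in the RefSeq gene order of GRCm38.p6, so that a neighbour's level can be read beside each member's. On chromosome 13 the order is Foxq1, Foxf2, Foxc1, with no other coding gene between them. Foxf2 peaked in E14.5, at 0.697 ± 0.0910 CPM per kb, where Foxc1 averaged 0.0373 ± 0.0194, and Foxf2 had 0 counts in ISC, where Foxc1 averaged 0.0950 ± 0.0436 and Foxq1 1.06 ± 0.247 CPM per kb. On chromosome 8, Foxf1 is followed by Mthfsd, Foxc2 and Foxl1. Foxf1 and Foxl1 were both highest in E14.5, whereas Foxc2 had 2 counts in all 12 libraries. On chromosome 4, Foxd2 and Foxe3 are adjacent, with 46 counts and 0 counts in all.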
